A study of Mus musculus with 37 samples.

Results

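The genes described here are the mouse zinc-finger genes with symbols from Zfp900 to Zfp999. They were taken from the deposited count table by symbol, with a summed count of 100 or more over all 37 libraries, which gave 50 of the 25239 gene rows. The range holds 58 symbols, and the other 8 fell below the minimum: Zfp987 had 78 reads in all, Zfp990 had 75, Zfp936 had 10, Zfp957 had 5, and Zfp965, Zfp966, Zfp967 and Zfp968 were at 0. In GENCODE M21, 49 of the members are protein coding and 1, Zfp939, is a transcribed unprocessed pseudogene.

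Mouse embryonic hearts (stage E10.5) were profiled by bulk paired-end RNA sequencing. The embryos came from fathers carrying Stra8-iCre and 1 floxed Nipbl allele and from mothers with Cre inserted in 1 allele of Isl1. Stra8-iCre recombines in the male germ line. The labels name the floxed allele, taken as wild-type, and FIN, a null, as the Nipbl alleles of the sperm, and do not mention the fathers' other allele. The 10 wild-type libraries (Nipbl +/+; Isl1 +/+) had both genes intact, the 9 Isl1 +/- libraries carried the Isl1 Cre allele in place of 1 working copy, the 9 Nipbl +/- libraries carried the null Nipbl allele, and the 9 Nipbl +/-; Isl1 +/- libraries, the double heterozygotes, carried both. Nipbl loads the cohesin ring onto chromatin, and Isl1 is a transcription factor of second heart field progenitors. Nothing in the labels says whether 1 heart or several made a library. Levels are in CPM (reads of a gene relative to all reads in genes of its library, after TMM scaling). Changes are log2 differences from an edgeR quasi-likelihood fit of genotype and set number (the number after IVF in the labels, whose meaning is not spelled out) to 15046 genes in all libraries. "Called" means an adjusted p (Benjamini-Hochberg over those genes) under 0.05.

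Most genes of this range encode KRAB zinc-finger proteins. Their zinc fingers bind DNA, often within transposable elements, and their KRAB domain recruits Trim28, which brings histone deacetylases, the H3K9 methyltransferase Setdb1 and HP1 proteins that silence chromatin. The genes multiplied by tandem duplication, so they lie in clusters of similar copies, and the DNA and RNA of neighbours can be hard to tell apart.

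Counts per library totalled 23.4 to 51.0 M reads (median 36.2). Nipbl had a median of 57.0 CPM in wild-type and 37.6 CPM in Nipbl +/-, a log2 change of -0.74 (edgeR adjusted p = 3.48e-04). Its median in the double heterozygotes was 37.2 CPM, a log2 change of -0.82 (edgeR adjusted p = 7.19e-05). The Isl1 Cre allele and the floxed Nipbl allele can meet in one embryo, and the labels do not say whether Cre then acts on it; Nipbl was at 61.5 ± 5.88 CPM in Isl1 +/- (SD, n = 9). The library labelled Nipbl +/- replicate 2 went against its label, with Nipbl at 72.4 CPM, and it was the highest or lowest of its group for 30 of the 48 tested members, against 2 to 19 members for any other library within its own group. In that library 5 of the 7 marker lists summed to values outside the range of the other Nipbl +/- libraries. Cardiomyocyte markers were above it, at 32098 CPM against 18723 to 29266. Below it were erythroid markers at 495 CPM against 1454 to 23002, neural markers at 91.6 CPM against 255 to 361, cushion mesenchyme markers at 116 CPM against 125 to 227, and liver and foregut endoderm markers at 1.75 CPM against 2.23 to 353. Endothelial markers, at 583 CPM, and epicardial markers, at 329 CPM, lay inside the range. Without it Nipbl had a log2 change of -0.88 in Nipbl +/- (edgeR adjusted p = 5.18e-10). Values without this library are given beside the results that rest on it. Cardiomyocyte markers summed to between 18723 and 34020 CPM over all libraries. Set 7 holds 1 double heterozygote, which its own set term fits exactly, so comparisons with the double heterozygotes rest on 8 of their 9 libraries. Set 1 holds only wild-type and Isl1 +/- libraries. Levels in CPM and counts of libraries above wild-type are not adjusted for set.

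The members lie on 11 chromosomes in 24 groups separated by at least 1 Mb. The largest is on chromosome 17 between 21567008 and 22867134 (GRCm38) and holds 10 members. The next is on chromosome 4 between 145670685 and 147848366 and holds 9, and a group of 5 lies on chromosome 2 between 176670522 and 178078476. In wild-type hearts the highest levels per kilobase of exon were those of Zfp948 (7.05 ± 1.03 CPM per kb, SD, n = 10), Zfp938 (5.29 ± 0.702), Zfp984 (5.26 ± 0.488), Zfp970 (5.11 ± 0.813) and Zfp935 (5.06 ± 0.710); the last 4 differ by less than 1 SD. Zfp980 had the lowest level at 0.0309 CPM per kb, followed by Zfp981 at 0.0474 and Zfp964 at 0.0577.

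Reads of similar copies may have been split or dropped in counting. Of the 50 members, 16 shared no 100-base stretch of their M21 transcripts with another gene and 29 shared under 5%. In 4 members more than 50% of such stretches were shared: Zfp935 (99.3%, with Gm49359), Zfp973 (73.2%), Zfp991 (70.3%, of which most with Znf41-ps) and Zfp960 (68.3%, with Zfp97). Levels of these 4 are uncertain as levels of single genes.

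All members called in any comparison of genotypes were higher with loss of a Nipbl allele, and all 7 of them lie in the chromosome 4 group. When the effect of Nipbl loss was averaged over the 2 Isl1 backgrounds, Zfp979, Zfp980, Zfp982, Zfp984, Zfp985, Zfp991 and Zfp992 rose, which is 7 of the 48 tested members (14.6%), where 2.67% of all genes tested were called higher and 1.36% lower. The median log2 change was 0.65 over the 8 tested members of the chromosome 4 group, 0.02 over the 40 tested members elsewhere and 0.01 over all genes. Zfp980 and Zfp985 passed the low-count filter through their libraries with Nipbl loss. Their part in this count and median, and in the counts below, is therefore no independent support. No member elsewhere was called by edgeR or by DESeq2, and 1 of the 40 (2.50%) had an unadjusted edgeR p under 0.05, against 14.9% of all genes. Without the library labelled Nipbl +/- replicate 2 it was 3 of the 40 (Zfp930, Zfp931 and Zfp956), and 0 were called. The members were chosen by symbol and the chromosome 4 group by position, with earlier results of these data known.

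**Figure D1:**
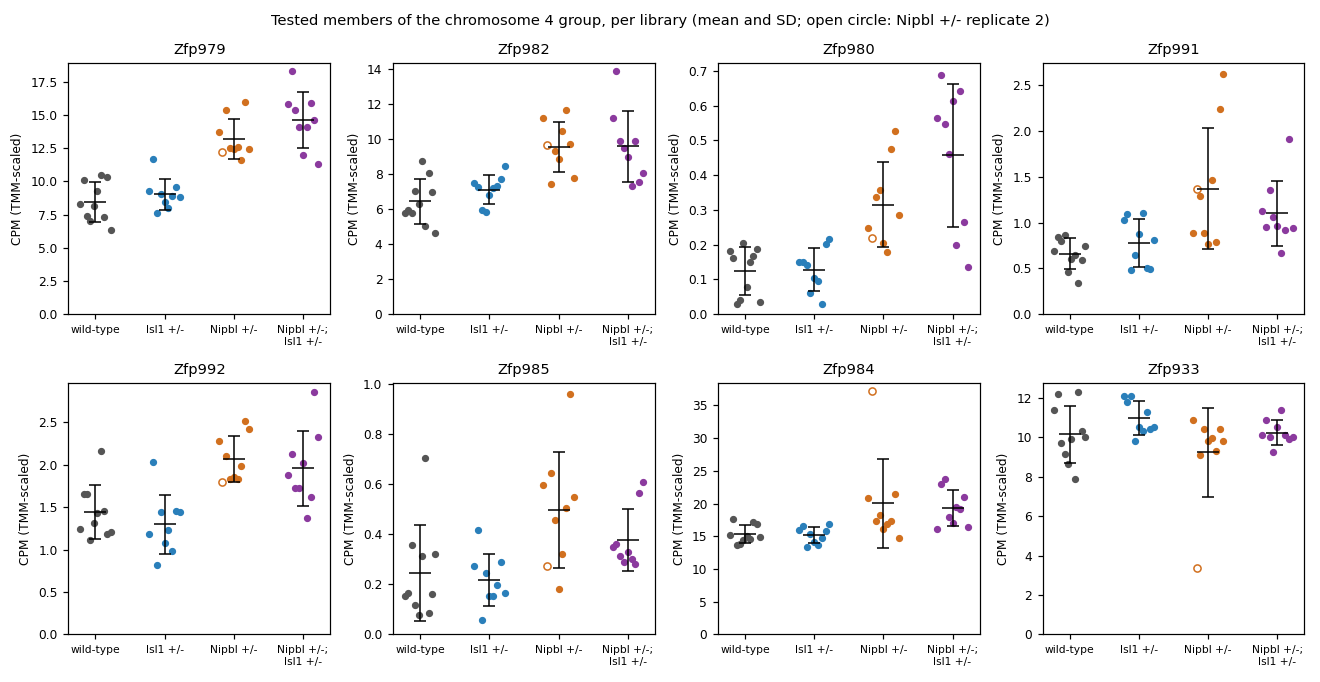
CPM (y axis) of the 8 tested chromosome 4 members, 1 panel per gene, by genotype (points are libraries, lines are means with SD, the open circle is the library labelled Nipbl +/- replicate 2). Zfp979 lies at 6.31 to 10.49 CPM in wild-type and at 11.3 CPM or above in all Nipbl +/- and double heterozygote libraries.

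The promoters of the chromosome 4 members are shown because 5 of the 7 called members share long runs of letters there that Zfp933 lacks. The RefSeq table (GRCm38.p6, 250 bases before to 50 after the start) held 45 of the 50 members, and it had no entry for Zfp991, Zfp992, Zfp930, Zfp934 and Zfp960. For genes with several starts, the one nearest the M21 gene start was taken. Promoters of 4 called members and of Zfp933, the tested member of the group that was not called, read as follows from 5′ to 3′. Capitals mark the 2 longest runs of letters common to the promoters of the 5 called members in the table, Zfp979, Zfp980, Zfp982, Zfp984 and Zfp985.
Zfp979, chr4:147642459-147642758, minus strand: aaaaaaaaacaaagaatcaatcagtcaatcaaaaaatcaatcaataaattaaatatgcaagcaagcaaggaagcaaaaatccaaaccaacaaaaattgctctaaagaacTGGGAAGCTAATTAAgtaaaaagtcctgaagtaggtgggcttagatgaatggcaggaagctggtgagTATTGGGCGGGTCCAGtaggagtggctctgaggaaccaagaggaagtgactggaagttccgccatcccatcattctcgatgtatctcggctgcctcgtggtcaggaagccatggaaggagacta
Zfp980, chr4:145670447-145670746, plus strand: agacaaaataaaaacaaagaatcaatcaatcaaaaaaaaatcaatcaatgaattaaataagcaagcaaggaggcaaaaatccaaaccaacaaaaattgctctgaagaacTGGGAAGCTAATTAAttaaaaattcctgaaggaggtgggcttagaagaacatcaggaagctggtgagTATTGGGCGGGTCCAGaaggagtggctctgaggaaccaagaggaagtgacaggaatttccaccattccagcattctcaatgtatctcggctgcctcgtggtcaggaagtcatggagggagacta
Zfp982, chr4:147492167-147492466, plus strand: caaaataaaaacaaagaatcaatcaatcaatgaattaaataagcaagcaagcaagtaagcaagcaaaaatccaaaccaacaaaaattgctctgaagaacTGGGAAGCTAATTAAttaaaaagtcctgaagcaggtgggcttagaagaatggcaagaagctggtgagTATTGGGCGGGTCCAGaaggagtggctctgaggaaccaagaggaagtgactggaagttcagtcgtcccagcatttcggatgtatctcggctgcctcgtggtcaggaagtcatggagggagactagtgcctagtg
Zfp984, chr4:147809739-147810038, minus strand: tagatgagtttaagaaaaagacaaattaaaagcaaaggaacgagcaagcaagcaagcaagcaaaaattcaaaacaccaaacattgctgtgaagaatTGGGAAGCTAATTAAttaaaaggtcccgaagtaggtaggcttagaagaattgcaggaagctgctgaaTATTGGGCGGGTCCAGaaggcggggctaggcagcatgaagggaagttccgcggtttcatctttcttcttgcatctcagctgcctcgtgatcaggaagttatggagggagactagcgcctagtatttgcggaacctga
Zfp933, chr4:147848369-147848668, minus strand: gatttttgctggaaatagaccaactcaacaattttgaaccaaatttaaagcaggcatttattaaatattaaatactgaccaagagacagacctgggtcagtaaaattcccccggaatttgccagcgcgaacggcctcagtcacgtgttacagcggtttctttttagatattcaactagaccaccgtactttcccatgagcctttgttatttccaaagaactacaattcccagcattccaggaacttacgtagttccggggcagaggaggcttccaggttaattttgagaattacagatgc
The first run, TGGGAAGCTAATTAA, has 15 bases and is also in the promoter of Zfp981. The second, TATTGGGCGGGTCCAG, has 16 bases and starts at position 177 of the Zfp979 promoter, counted from 1 at the 5′ end.

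Searched on both strands, the 16-base run was found in 9 of 32851 promoters (0.0274%), and the 15-base run in 12 (0.0365%). The 9 promoters with the 16-base run belong to 9 genes of chromosome 4: the 5 members named, Gm13212, Rex2, Zfp600 and Zfp988. The run was taken from the 5 members because they were called, so their calls say nothing of it. Of the others, 2 could be tested: Gm13212 was called with the averaged effect (log2 change 0.51, edgeR adjusted p = 2.66e-04) and Zfp600 was not (0.12, edgeR adjusted p = 0.931). The 16-base run holds CCAAT (as its reverse complement) and the GC box letters GGGCGG, which overlap in it. CCAAT is in 37.4% of all promoters and GGGCGG in 35.7%. Identity between promoters of the 5 called members was at least 81.1% over aligned bases. The Zfp933 promoter shared no run longer than 10 bases with any other promoter of the group, holds neither marked run, and has CACGTG, found in 7.2% of promoters. The runs were chosen after the changes were known, and a match is a description of letters, not of binding.

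Zfp979 lies on the minus strand at 147611937 to 147642513 and shares 21.5% of its 100-base stretches with other genes, chiefly Zfp600. Its lowest, median and highest levels were 6.31, 8.23 and 10.49 CPM in wild-type and 7.63, 8.87 and 11.7 CPM in Isl1 +/-. In Nipbl +/- they were 11.6, 12.5 and 16.0 CPM, and in the double heterozygotes 11.3, 14.6 and 18.3 CPM. Every Nipbl +/- library and every double heterozygote library was thus above every wild-type library, and Zfp979 was the 1 tested member of which this held in either comparison. Over all genes this held for 0.133% in Nipbl +/- and for 0.326% in the double heterozygotes. One Isl1 +/- library, replicate 2 at 11.7 CPM, reached into their range. The log2 change was 0.68 in Nipbl +/- against wild-type (SE 0.10, edgeR adjusted p = 1.43e-04). It was 0.80 in the double heterozygotes against wild-type (SE 0.10, edgeR adjusted p = 2.93e-05) and 0.69 against Isl1 +/- (SE 0.11, edgeR adjusted p = 2.68e-04). The first and the last of these comparisons share no library, but all come from one fit.

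Within each of the 3 sets that hold all 4 genotypes, Zfp979 was also higher. The differences in mean log2(CPM + 0.1) between Nipbl +/- and wild-type were 0.64, 0.74 and 0.68 in sets 2, 5 and 6. They compare 2 libraries with 3, 4 with 2 and 3 with 2. Between the double heterozygotes and Isl1 +/- the differences were 0.71, 0.63 and 0.85, from 2 libraries against 2, 5 against 3 and 1 against 1. The value in set 6 thus has no replicates. The calls of Zfp979 in these 2 comparisons and in the double heterozygotes against wild-type held in all 37 fits that left out 1 library. Without set 5 the call against Isl1 +/- was lost, at a log2 change of 0.72 (edgeR adjusted p = 0.142), and both calls against wild-type held.

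Zfp982 (plus strand, 147492417 to 147513486) shares 3.1% of its stretches, so its count is nearly its own. It had a mean of 6.45 ± 1.29 CPM in wild-type (SD, n = 10; lowest 4.67, median 6.12, highest 8.78) and 7.13 ± 0.832 CPM in Isl1 +/- (SD, n = 9; 5.84, 7.26, 8.49). Nipbl +/- had 9.58 ± 1.44 CPM (SD, n = 9; 7.44, 9.67, 11.7) and the double heterozygotes 9.59 ± 2.04 CPM (SD, n = 9; 7.34, 9.48, 13.9). The groups overlapped: 7 of 9 Nipbl +/- and 6 of 9 double heterozygote libraries were above every wild-type library. The log2 change was 0.47 in Nipbl +/- (SE 0.08, edgeR adjusted p = 6.90e-04) and 0.44 in the double heterozygotes (SE 0.08, edgeR adjusted p = 0.00159), both against the same wild-type libraries. In the double heterozygotes against Isl1 +/- it was 0.28 and was not called (SE 0.08, edgeR adjusted p = 0.111). It was called there by DESeq2, and by edgeR without the library labelled Nipbl +/- replicate 2 (0.28, edgeR adjusted p = 0.0473). Without set 5 the double heterozygotes were no longer called against wild-type (0.36, edgeR adjusted p = 0.225), nor was the averaged effect, which was 0.38 with all libraries and 0.30 without that set (edgeR adjusted p = 1.59e-04 and 0.0610). Within sets 2, 5 and 6 the difference between Nipbl +/- and wild-type was 0.46, 0.54 and 0.33. Double heterozygotes exceeded Isl1 +/- by 0.24, 0.34 and 0.22 in these sets, the last from 1 library against 1. Zfp982 was also the 1 member of the chromosome 4 group that differed between sets (edgeR adjusted p = 4.30e-05).

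Zfp980 (plus strand, 145670685 to 145704441) had the largest averaged log2 change, 1.53 (SE 0.27, edgeR adjusted p = 6.54e-04), and a low level. Its 10 wild-type libraries held 41 reads in all (1 to 8 each), the Isl1 +/- libraries 42 (1 to 8), the Nipbl +/- libraries 106 (8 to 18) and the double heterozygotes 149 (4 to 28). No wild-type or Isl1 +/- library thus held 10 reads, the minimum count of the filter, and Zfp980 passed through its libraries with Nipbl loss. It was tested only because it was high there, so its calls are no independent support. In CPM the lowest, median and highest values were 0.0297, 0.157 and 0.205 in wild-type, 0.0282, 0.142 and 0.217 in Isl1 +/-, 0.179, 0.286 and 0.528 in Nipbl +/-, and 0.135, 0.548 and 0.689 in the double heterozygotes. In each of the last 2 groups 7 of 9 libraries were above every wild-type library. The log2 change was 1.80 in the double heterozygotes against wild-type (SE 0.37, edgeR adjusted p = 0.00378) and 1.80 against Isl1 +/- (SE 0.37, edgeR adjusted p = 0.00929). Without set 5 both calls were lost, at 1.56 against wild-type (edgeR adjusted p = 0.215) and 1.42 against Isl1 +/- (edgeR adjusted p = 0.504), and the latter was also lost without set 2 (1.92, edgeR adjusted p = 0.0699). In Nipbl +/- it was 1.26 and was not called (edgeR adjusted p = 0.0648). It was called there by DESeq2, by edgeR with no set term or with Xist as a covariate, and by edgeR without any 1 of 3 libraries, wild-type replicate 9, Nipbl +/- replicate 6 and the library labelled Nipbl +/- replicate 2 (1.29, edgeR adjusted p = 0.0486 without the last).

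Of the 100-base stretches of Zfp980, 45.6% are shared, most of them with Rex2, whose promoter also holds the 16-base run. Reads of both genes together came to 0.162 ± 0.0967 CPM in wild-type hearts (SD, n = 10) and to 0.193 ± 0.0819 CPM in Isl1 +/- (SD, n = 9). They came to 0.411 ± 0.165 CPM in Nipbl +/- (SD, n = 9), with 7 of 9 libraries above every wild-type library. In the double heterozygotes they came to 0.593 ± 0.190 CPM (SD, n = 9), with 9 of 9 above.

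Zfp991 (plus strand, 147132038 to 147180579) and Zfp992 (plus strand, 146449023 to 146470292) are also similar copies; 28.6% of the stretches of Zfp992 are shared, most of them with Zfp991. Zfp991 had a mean of 0.660 ± 0.170 CPM in wild-type (SD, n = 10; lowest 0.336, median 0.674, highest 0.871), 0.784 ± 0.263 CPM in Isl1 +/- (SD, n = 9; 0.482, 0.814, 1.11), 1.37 ± 0.663 CPM in Nipbl +/- (SD, n = 9; 0.766, 1.29, 2.63) and 1.10 ± 0.357 CPM in the double heterozygotes (SD, n = 9; 0.674, 0.965, 1.92). Nipbl +/- libraries were above every wild-type library in 7 of 9 cases and double heterozygote libraries in 8 of 9, as were 4 of 9 Isl1 +/- libraries. The log2 change was 1.19 in Nipbl +/- (SE 0.25, edgeR adjusted p = 0.00739) and 0.94 in the double heterozygotes (SE 0.26, edgeR adjusted p = 0.0434). Against Isl1 +/- it was 0.64 in the double heterozygotes and was not called (SE 0.26, edgeR adjusted p = 0.410). The call in Nipbl +/- was lost without set 2 (1.02, edgeR adjusted p = 0.168) and without set 6 (1.01, edgeR adjusted p = 0.0704). With the averaged effect Zfp991 was called at 0.92 (SE 0.19, edgeR adjusted p = 0.00280), but not without set 2 (0.81, edgeR adjusted p = 0.0907). The call in the double heterozygotes against wild-type was lost without any 1 of sets 1, 2, 5 and 6 (edgeR adjusted p up to 0.464) and also in 25 of the 37 fits that left out 1 library (edgeR adjusted p between 0.0209 and 0.128). It was kept without any 1 of Isl1 +/- replicates 3, 4 and 6, wild-type replicates 2 and 4, Nipbl +/- replicates 2, 3, 7, 8 and 9, and double heterozygote replicates 2 and 6.

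Zfp992 had lowest, median and highest levels of 1.11, 1.37 and 2.16 CPM in wild-type and of 0.822, 1.23 and 2.03 CPM in Isl1 +/-. They were 1.80, 1.98 and 2.51 CPM in Nipbl +/- and 1.37, 1.88 and 2.86 CPM in the double heterozygotes. The ranges overlapped, since wild-type replicate 7 at 2.16 CPM stood above the median of both groups with Nipbl loss. The log2 change was 0.58 in Nipbl +/- (SE 0.16, edgeR adjusted p = 0.0483), and this call held in 5 of the 37 fits without 1 library: Isl1 +/- replicates 3 and 8, wild-type replicate 7, Nipbl +/- replicate 2 and double heterozygote replicate 6 (edgeR adjusted p between 0.0176 and 0.105 over all 37). It was also lost without any 1 of sets 1, 2, 5 and 6 (edgeR adjusted p up to 0.227). In the double heterozygotes the change was 0.50 against wild-type and 0.64 against Isl1 +/-, called in neither case (edgeR adjusted p = 0.121 and 0.0567). Against Isl1 +/- it was called by DESeq2, and by edgeR with no set term, a replicate block or Xist as a covariate. It was also called there without any 1 of Isl1 +/- replicate 2, double heterozygote replicate 6, wild-type replicate 7 and Nipbl +/- replicate 2 (0.63, edgeR adjusted p = 0.0313 without the last). Against wild-type it was called without wild-type replicate 7. Averaged over both Isl1 genotypes the change was 0.61 (SE 0.12, edgeR adjusted p = 0.00196), and that call held in all 37 but was lost without set 5 (0.56, edgeR adjusted p = 0.147). Zfp991, Zfp992 and Znf41-ps together came to 4.33 ± 0.749 CPM in wild-type hearts (SD, n = 10), 4.14 ± 0.766 CPM in Isl1 +/-, 6.02 ± 0.919 CPM in Nipbl +/- and 5.48 ± 1.08 CPM in the double heterozygotes (SD, n = 9 each). In this sum 5 of 9 Nipbl +/- and 2 of 9 double heterozygote libraries were above every wild-type library.

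Zfp985 (plus strand, 147553277 to 147585198; 1.7% shared) was called with the averaged effect, with a log2 change of 1.07 (SE 0.28, edgeR adjusted p = 0.0193), and by edgeR in no comparison of 2 genotypes. That call was lost without set 2 (1.25, edgeR adjusted p = 0.0792), set 5 (0.97, edgeR adjusted p = 0.227) or set 6 (0.98, edgeR adjusted p = 0.0938). Its lowest, median and highest levels were 0.0771, 0.162 and 0.703 CPM in wild-type and 0.0567, 0.197 and 0.418 CPM in Isl1 +/-. With Nipbl loss they were 0.179, 0.503 and 0.957 CPM in Nipbl +/- and 0.279, 0.329 and 0.607 CPM in the double heterozygotes. Like Zfp980, it passed the low-count filter through the libraries with Nipbl loss, since most wild-type and Isl1 +/- libraries were too low. Wild-type replicate 7 was again the highest of its group, and 1 Nipbl +/- library was above it. Against wild-type, Zfp985 was called in Nipbl +/- by DESeq2, and by edgeR without any 1 of Isl1 +/- replicate 3, wild-type replicate 7, Nipbl +/- replicate 5 and Nipbl +/- replicate 2 (log2 change 1.27, edgeR adjusted p = 0.0444 without the last).

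Zfp984 (minus strand, 147753974 to 147809788) was the member of the group with the most reads, and its change was the smallest of those called. It had 15.3 ± 1.42 CPM in wild-type (SD, n = 10; lowest 13.7, median 14.9, highest 17.7) and 15.2 ± 1.26 CPM in Isl1 +/- (SD, n = 9; 13.3, 15.4, 16.9). Nipbl +/- had a lowest, median and highest level of 14.7, 17.4 and 37.2 CPM, and the double heterozygotes 19.3 ± 2.77 CPM (SD, n = 9; 16.1, 19.1, 23.7). The value of 37.2 CPM is that of the library labelled Nipbl +/- replicate 2. The averaged log2 change was 0.34 (SE 0.10, edgeR adjusted p = 0.0333) with that library and 0.27 without it (SE 0.06, edgeR adjusted p = 0.00341). In Nipbl +/- against wild-type the change was 0.37 with it and 0.22 without it, called in neither case (edgeR adjusted p = 0.125 and 0.155). Without it Zfp984 was also called in the double heterozygotes, at 0.31 against wild-type (edgeR adjusted p = 0.0183) and 0.33 against Isl1 +/- (edgeR adjusted p = 0.0236). The averaged call was lost without Isl1 +/- replicate 6 or 7, wild-type replicate 4 or 5, or double heterozygote replicate 6 or 8 (edgeR adjusted p up to 0.0738), and without any 1 of sets 1, 2, 5 and 6 (edgeR adjusted p up to 0.189). Zfp984 shares 30.9% of its stretches, most of them with Gm13212, and the 2 together came to 20.6 ± 2.11 CPM in wild-type hearts (SD, n = 10), 20.2 ± 1.90 CPM in Isl1 +/-, 27.6 ± 7.68 CPM in Nipbl +/- and 26.5 ± 3.79 CPM in the double heterozygotes (SD, n = 9 each). Without that library, at 47.1 CPM, the sum in Nipbl +/- was 25.2 ± 2.48 CPM (SD, n = 8).

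Zfp933 (minus strand, 147822986 to 147848366), which shares none of its stretches with another gene and has an unlike promoter, was not called in any comparison of genotypes. It had 10.1 ± 1.45 CPM in wild-type hearts (SD, n = 10), 11.0 ± 0.855 CPM in Isl1 +/-, 9.23 ± 2.27 CPM in Nipbl +/- and 10.2 ± 0.612 CPM in the double heterozygotes (SD, n = 9 each). The averaged log2 change was -0.05 (SE 0.10, 95% interval -0.25 to 0.14, edgeR adjusted p = 0.865), and it was -0.01 without the library labelled Nipbl +/- replicate 2, where Zfp933 was at 3.36 CPM. Zfp981 (plus strand, 146502027 to 146539395) did not pass the low-count filter and was not tested. Its medians were 0.140 CPM in wild-type, 0.0851 CPM in Isl1 +/-, 0.198 CPM in Nipbl +/- and 0.223 CPM in the double heterozygotes, and its groups overlapped.

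Counted by comparison, 4 of the 48 tested members (8.33%) were called higher in Nipbl +/- against wild-type: Zfp979, Zfp982, Zfp991 and Zfp992. Of all genes, 1.20% were called higher and 0.518% lower there. The double heterozygotes against wild-type also gave 4 members (8.33%) called higher, Zfp979, Zfp980, Zfp982 and Zfp991, against 1.77% of all genes higher and 0.824% lower. These 2 comparisons share their wild-type libraries. Against Isl1 +/-, the double heterozygotes had 2 members (4.17%) called higher, Zfp979 and Zfp980, against 0.532% of all genes higher and 0.425% lower. Without the library labelled Nipbl +/- replicate 2 the 3 counts were 6, 5 and 5 of 49 tested members, all higher, against 1.78%, 3.33% and 1.40% of all genes called higher. The averaged effect then called 7 members (14.3%), against 4.28% of all genes called higher. DESeq2 called 6, 4 and 4 of 48 members higher in the 3 comparisons, against 2.09%, 2.12% and 0.826% of all genes. With the averaged effect it called 7 (14.6%), against 3.34% of all genes. The library labelled Nipbl +/- replicate 2 is in neither group of the double heterozygotes against Isl1 +/-, but it enters the shared estimate of the spread.

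**Figure D2:**
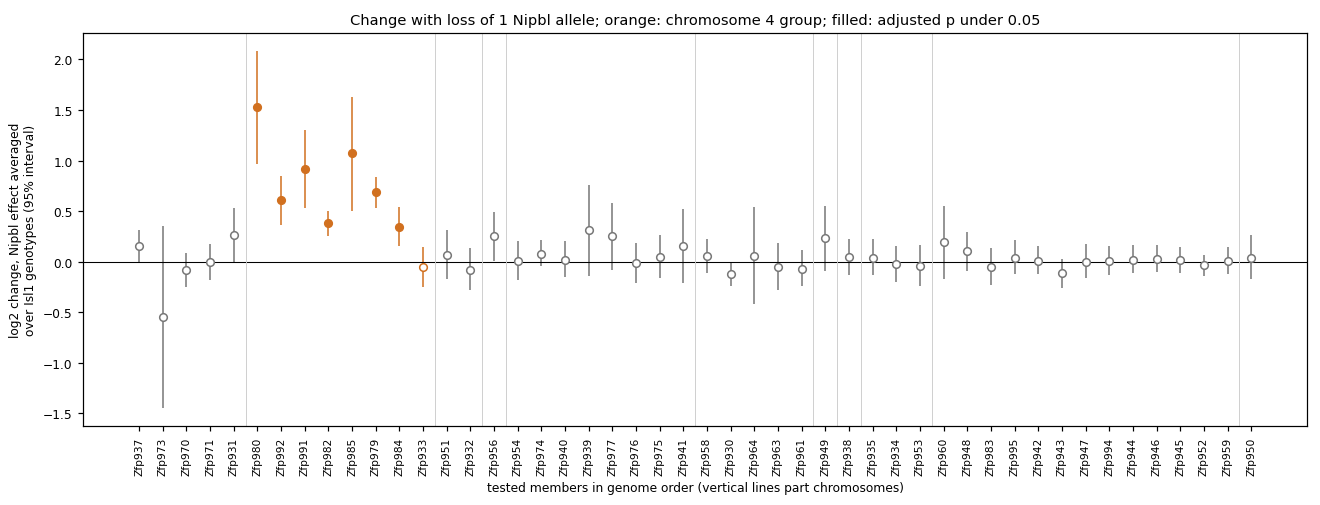
Averaged log2 change with Nipbl loss and its 95% interval (y axis) for the 48 tested members in genome order (x axis); orange marks the chromosome 4 group and filled points an adjusted p under 0.05. The 7 called members are all in the chromosome 4 group, whose median is 0.65, and the 40 members elsewhere have a median of 0.02.

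Isl1 loss moved no member past the threshold. In Isl1 +/- against wild-type 0 of 48 members were called by edgeR and 0 by DESeq2, with 3 at an unadjusted p under 0.05 and a smallest adjusted p of 0.835. Against Nipbl +/-, 0 were called in the double heterozygotes by either tool, with 5 at an unadjusted p under 0.05 and a smallest edgeR adjusted p of 0.516. The interaction of both losses called 0 members by either tool, with 0 at an unadjusted p under 0.05. In each of these 3 comparisons 0% of all genes were called by edgeR. The interaction estimate for Zfp979 was 0.01 (SE 0.14) and that for Zfp980 was 0.54 (SE 0.49).

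The summed counts of the family are not affected by how reads were divided among its own copies. Reads shared with genes outside it, or dropped in counting, can still affect them. Such genes are Rex2, Znf41-ps, Gm13212 and Zfp600 for the chromosome 4 members. All 50 members together came to 339 ± 16.9 CPM in wild-type hearts (SD, n = 10), 346 ± 31.0 CPM in Isl1 +/-, 352 ± 28.2 CPM in Nipbl +/- and 349 ± 27.1 CPM in the double heterozygotes (SD, n = 9 each), from 6839 to 16644 reads per library. The 9 chromosome 4 members together came to 43.0 ± 3.83 CPM in wild-type (SD, n = 10; lowest 38.2, median 42.4, highest 48.9) and to 44.8 ± 3.46 CPM in Isl1 +/- (SD, n = 9; 40.6, 44.2, 51.2). They came to 56.5 ± 5.70 CPM in Nipbl +/- (SD, n = 9; 50.6, 54.1, 66.1) and to 57.8 ± 6.08 CPM in the double heterozygotes (SD, n = 9; 50.0, 57.1, 70.4). All 9 Nipbl +/- and all 9 double heterozygote libraries were above every wild-type library, as was 1 Isl1 +/- library. These sums and counts of libraries are not adjusted for set, and the highest, 70.4 CPM, is the library of set 7. The mean was 1.31-fold that of wild-type in Nipbl +/- (1.29-fold without the library labelled Nipbl +/- replicate 2) and 1.34-fold in the double heterozygotes.

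Within sets 2, 5 and 6 the chromosome 4 sum differed between Nipbl +/- and wild-type by 0.31, 0.54 and 0.30 on the log2 scale. Between the double heterozygotes and Isl1 +/- it differed by 0.43, 0.33 and 0.31, the last from 1 library against 1. The 41 members elsewhere together came to 296 ± 15.2 CPM in wild-type hearts (SD, n = 10) and 302 ± 28.5 CPM in Isl1 +/-. They came to 295 ± 23.1 CPM in Nipbl +/- and 291 ± 21.4 CPM in the double heterozygotes (SD, n = 9 each). The ratios to wild-type of the latter 2 were 0.998 and 0.983, within the spread of libraries. No test was made of a sum over members. In bulk tissue, fewer cells of a type and less RNA per cell cannot be told apart.

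**Figure D3:**
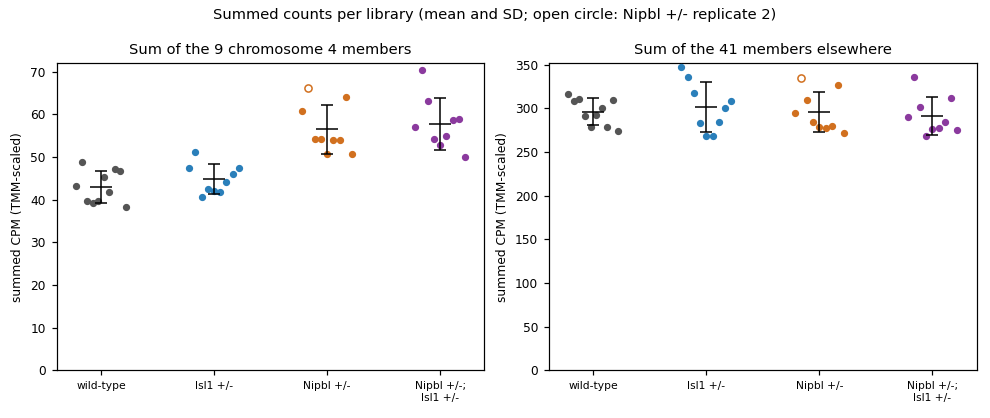
Summed CPM per library of the 9 chromosome 4 members (left) and of the 41 members elsewhere (right), by genotype, with mean and SD; the open circle is the library labelled Nipbl +/- replicate 2. On the left all 18 libraries with Nipbl loss lie at 50.0 CPM or above and all wild-type libraries at 48.9 CPM or below; on the right the groups overlap.

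Epicardial markers also differed between genotypes. Their sum had a median of 300 CPM in wild-type (179 to 332), 365 in Isl1 +/- (220 to 398), 371 in Nipbl +/- (297 to 420) and 463 in the double heterozygotes (369 to 494). By edgeR, 1 of the 4 epicardial markers was called higher in Nipbl +/-, 3 of 4 in the double heterozygotes and 2 of 4 with the averaged effect. Of 5 neural markers, 1 was called higher in Nipbl +/-, 0 in the double heterozygotes and 2 with the averaged effect. Of the 6 cardiomyocyte, 6 endothelial, 6 erythroid, 4 cushion mesenchyme and 5 liver markers, 0 were called by edgeR in these comparisons, and no marker of any list was at 0 in all libraries. The part of these cell types in the chromosome 4 result was not tested.

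**Figure D4:**
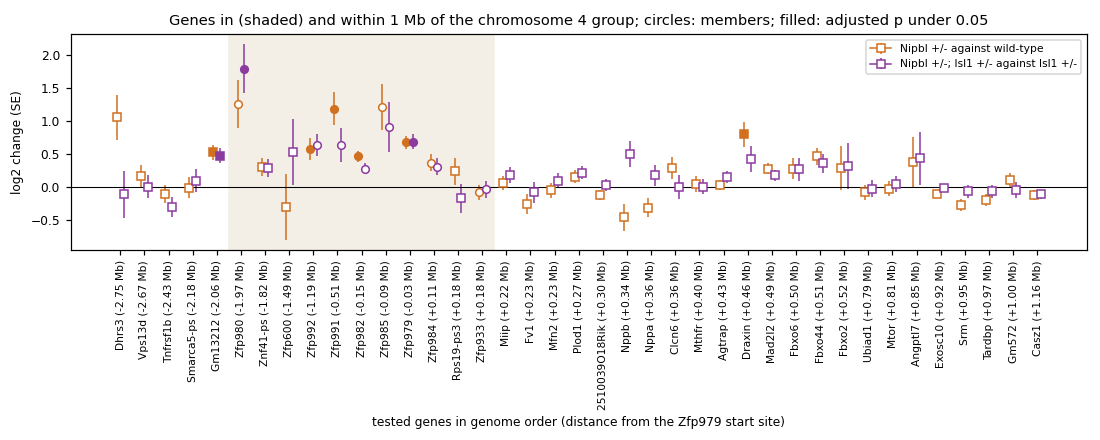
Log2 change with SE (y axis) in Nipbl +/- against wild-type (orange) and in the double heterozygotes against Isl1 +/- (purple) for tested genes in and within 1 Mb of the chromosome 4 group, in genome order with the distance from the Zfp979 start in Mb (x axis); circles are members, squares other genes, filled points are called. Beyond the 5 members called in either comparison, Gm13212 is filled in both and Draxin in the first.

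The genes around the chromosome 4 members were looked at after the members' values were known. Inside the span the table holds 10 other gene rows, of which 3 could be tested, Zfp600, Znf41-ps and Rps19-ps3, and 0 were called in any of the 4 Nipbl comparisons. Within 1 Mb on either side 28 of 33 genes were tested and 4 (14.3%) were called higher with the averaged effect, against 2.67% of all genes: Gm13212, Draxin, Mad2l2 and Fbxo44. Gm13212, which lies just before Zfp980, had a log2 change of 0.51 (edgeR adjusted p = 2.66e-04). Draxin, a secreted axon guidance protein, changed by 0.62, Fbxo44, an F-box protein, by 0.41, and Mad2l2, a subunit of DNA polymerase zeta, by 0.23.

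The 40 tested members on the other chromosomes ranged from -0.81 to 0.63 in Nipbl +/- against wild-type and from -0.54 to 0.58 in the double heterozygotes against wild-type. In the chromosome 17 group of 10 members 0 were called. An unadjusted p under 0.05 was found for 4 of the 40 in Nipbl +/- (10.0%, against 15.1% of all genes) and for 3 of the 40 in the double heterozygotes (7.50%, against 11.6%). They are named here after their values were seen: Zfp931, Zfp939, Zfp949 and Zfp956 in Nipbl +/- (smallest edgeR adjusted p = 0.145), and Zfp930, Zfp931 and Zfp977 in the double heterozygotes (smallest edgeR adjusted p = 0.183). For Zfp939, Zfp949 and Zfp956 the highest Nipbl +/- library was the one labelled replicate 2, at 6.55, 26.3 and 7.65 CPM against group medians of 1.27, 6.68 and 3.51 CPM. Without it their log2 changes in Nipbl +/- went from 0.63 to 0.13, from 0.49 to 0.16 and from 0.44 to 0.26 (edgeR adjusted p = 0.748, 0.531 and 0.231), and the range over the 40 members was -0.70 to 0.45. Zfp930, Zfp931 and Zfp956 then had an unadjusted edgeR p under 0.05 in Nipbl +/- (3 of the 40). In the double heterozygotes these were Zfp930, Zfp931, Zfp970 and Zfp977 (4 of the 40), and 0 were called in either comparison. Other numbered Zfp genes outside the range, 287 tested, had 0 called in Nipbl +/- by edgeR (18 at an unadjusted p under 0.05, 1 by DESeq2), 1 in the double heterozygotes against wild-type and 1 with the averaged effect (0.348%).

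Without correction for length, the 5 members with the highest mean CPM were Zfp930, Zfp948, Zfp984, Zfp945 and Zfp961. Zfp930 had 21.6 ± 2.39 CPM in wild-type hearts (SD, n = 10), 20.6 ± 2.24 in Isl1 +/-, 19.7 ± 3.33 in Nipbl +/- and 19.0 ± 2.21 in the double heterozygotes (SD, n = 9 each), and was not called (log2 change -0.21 in the last against wild-type, edgeR adjusted p = 0.226). Zfp948 had 18.7 ± 2.73 CPM in wild-type hearts (SD, n = 10) and a median of 17.6 CPM in Nipbl +/-, where the library labelled Nipbl +/- replicate 2 was at 40.8; without it the mean was 18.6 ± 2.39 CPM (SD, n = 8). Zfp945 had 18.1 ± 2.10 CPM in wild-type hearts (SD, n = 10) and 16.7 ± 2.75 in the double heterozygotes (SD, n = 9). Zfp961 had 13.8 ± 1.17 CPM in wild-type hearts (SD, n = 10) and 13.4 ± 1.04 in the double heterozygotes (SD, n = 9). These 4 were not called in any comparison of genotypes.

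Members also differed between sets. Set number called 11 of 48 members (22.9%), against 38.2% of all genes tested, and of these 10 lie outside the chromosome 4 group, Zfp944 among them (edgeR adjusted p = 0.00376). DESeq2 called 14 of 48 (29.2%), against 44.6% of all genes. Without double heterozygote replicate 8 edgeR called 7 of 49 members (14.3%), against 29.4% of all genes, and without the library labelled Nipbl +/- replicate 2 it called 22 of 49 (44.9%), against 55.7%.

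The partners of KRAB proteins were described from a list of 27 genes, of which 26 were in the table and all 26 were tested. In the double heterozygotes against wild-type 1 of the 26 was called (3.85%, against 2.60% of all genes), a share near that of all genes. It was Cbx3, which encodes an HP1 protein that reads H3K9 methylation, and it fell by 0.25 on the log2 scale (SE 0.07, edgeR adjusted p = 0.0364). Its mean was 175 ± 18.6 CPM in wild-type hearts (SD, n = 10) and 157 CPM in each of the other 3 genotypes, with SDs of 13.7 in Isl1 +/-, 19.0 in Nipbl +/- and 17.4 in the double heterozygotes. The log2 change was -0.15 in Isl1 +/- (edgeR adjusted p = 0.780) and -0.23 in Nipbl +/- (edgeR adjusted p = 0.0615; -0.25 and 0.0293 without the library labelled replicate 2). Between the double heterozygotes and Isl1 +/- it was -0.10 (edgeR adjusted p = 1.000), and there 0 of the 26 were called by edgeR or by DESeq2 and 0 had an unadjusted p under 0.05. In Nipbl +/- against wild-type 0 of the 26 were called by edgeR, with 4 at an unadjusted p under 0.05 (15.4%, against 15.1% of all genes) and 1 called by DESeq2. Trim28, the corepressor itself, had 560 ± 29.6 CPM in wild-type hearts (SD, n = 10), 529 ± 93.9 in Nipbl +/- (SD, n = 9; 556 ± 47.5 without the library labelled replicate 2, at 308) and 557 ± 37.8 in the double heterozygotes (SD, n = 9). Its log2 changes were -0.10 and -0.03 (edgeR adjusted p = 0.618 and 0.950). The median log2 change over the list was -0.08 in Nipbl +/-, -0.02 in the double heterozygotes and -0.04 with the averaged effect. Of the 26, 3, 10 and 5 were higher in these comparisons, against 7847, 7445 and 7781 of all 15046 genes. With the averaged effect 0 were called by edgeR and 1 by DESeq2, with 4 at an unadjusted edgeR p under 0.05 (15.4%, against 14.9% of all genes). Cbx3 was at -0.16 there (edgeR adjusted p = 0.0559, and 0.0244 without the library labelled replicate 2).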

How the data were processed

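Per the labels' protocols, total RNA of E10.5 hearts was extracted with the NEB Monarch kit and made into libraries with NEBNext Ultra II RNA. The authors deposited raw read counts per gene, 1 column per library; per the submitters' processing notes STAR, featureCounts and GRCm38/mm10 were used. Versions, annotation, strand setting and filters are not given in the sources used here, so reads of overlapping, antisense or similar genes may be mixed. Groups come from the genotype labels; 0 other value columns were present. All within-genotype pairs of libraries differed by more than sampling noise. Nothing says that replicates are separate litters, and p-values measure the spread between these libraries.

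Counts were filtered (filterByExpr, minimum count 10, minimum total count 15), scaled by TMM and fitted with edgeR 4.0.16 (limma 3.58.1, R 4.3.3; quasi-likelihood, two-sided, genotype and set number), with adjustment over 15046 genes per comparison and a threshold of 0.05. The averaged effect is the mean of the Nipbl effects on both Isl1 backgrounds. DESeq2 1.42.0 was an alternative. The script was tested on simulated data. Exon lengths, positions and shared 100-base stretches came from GENCODE M21 (GRCm38). Named were all called members, the 5 of highest mean CPM, Zfp979, members apart from all wild-type libraries, the whole chromosome 4 group, and of the corepressor list Trim28 and called genes; Zfp933, Zfp981, promoters and neighbours were described after values were seen. The members and lists were chosen with earlier results of these data known.

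Alternatives were no set term, a replicate block, DESeq2, other size factors, other filters, Xist as a covariate, and leaving out each set or library. Intervals cover the spread between libraries.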

Additional observations from a re-analysis of the deposited data

Results flagged for a closer look

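Within groups of 9 or 10 libraries, the highest or lowest library stood far from the rest for 9 of 64 groups checked (16 genes or sums in 4 genotypes), where chance gives about 1 in 20. The library labelled Nipbl +/- replicate 2, whose Nipbl level goes against its label, accounts for 4: Zfp984 at 37.2 CPM and Zfp948 at 40.8 CPM were high, and Zfp933 at 3.36 CPM and Zfp961 at 5.38 CPM were low. Wild-type replicate 7 was high for Zfp992 (2.16 CPM) and Zfp985 (0.703 CPM). Isl1 +/- replicate 2 was high for Zfp979 (11.7 CPM) and for Zfp981 (0.239 CPM), which was not tested for genotype. Double heterozygote replicate 8 was high for Zfp945 (23.4 CPM).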

How the results depend on the processing

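Of 48 alternative fits, none called a member outside the chromosome 4 group in any comparison of genotypes, and 0 of 812 values for the 17 calls of single members changed direction, with 718 on the same side of the threshold and 94 no longer past it. In Nipbl +/- against wild-type the 4 calls became 2 without set 2 and 2 without set 6, and 3 to 6 without 1 library. In the double heterozygotes against wild-type the 4 became 1 without set 5, and 3 to 5 without 1 library. In the double heterozygotes against Isl1 +/- the 2 became 4 with DESeq2, 1 with at least 10 counts in every library, 1 without set 2, 0 without set 5, and 2 to 5 without 1 library. With the averaged effect the 7 became 4 without set 2, 3 without set 5, and 6 to 7 without 1 library. The 11 members that differed between sets became 7 to 22 without 1 library. Fewer samples enter the fits without a set; beyond that the cause was not tested. A replicate block gave 3, 3, 3 and 7 calls; the numbers pair nothing, since libraries of the same number correlated at a mean r of 0.03 and 4 of 37 correlated best with their own number. The chromosome 4 sum in Nipbl +/- over wild-type was 0.39 (log2) and 0.33 to 0.46 under its alternatives. Low counts of Zfp980, Zfp981 and Zfp985 limit what could be resolved.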
